A study of Mus musculus with 6 samples.

Results

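The genes described here are those of the ubiquitin and SUMO pathways that the submitters had named when they compared 3 clones derived from EL4 cells, which come from a T cell lymphoma of the mouse. A gene belongs to the set when its deposited name holds the word ubiquitin, F-box, ring finger, tripartite motif, cullin or SUMO, without zinc finger or ubiquitin associated in the name and leaving out Ubiquitin specific peptidase 18. This gave 41 genes with 50 probe sets, of 1880 distinct names on 2451 listed probe sets. By the words in their names, 24 belong to ligase families, 4 are conjugating enzymes, 9 are peptidases and 4 are none of these. A name existed only where the submitters had reported a difference between lines: 40 of the 41 genes stand in their list for V7 and WT2, 2 stand in their list for C5 and V7, and Ublcp1 stands in both. The set was therefore chosen on measured differences, and the differences between V7 and WT2 that follow are a description of chosen genes. Where the text says that a gene was called between these lines, it passed the limits given below, which serves to sort the genes and is no independent test.

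Total RNA was measured on 6 Affymetrix arrays, with 2 aliquots of cells from each of 3 lines that had been grown overnight without serum and were otherwise untreated. WT2 is labelled as sensitive to PMA, a phorbol ester that activates protein kinase C, and as non-adherent and non-metastatic. V7 is labelled as PMA-resistant, adherent and metastatic, and C5 as PMA-resistant, adherent and highly metastatic. Each line is 1 clone, and the labels do not say that its aliquots came from separate cultures, so every p-value rests on aliquot-to-aliquot spread alone, and that spread may be technical. Fewer cells that express a gene and less of its RNA per cell cannot be told apart in such bulk samples.

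Ubiquitin is a small protein that is attached to other proteins in a relay of an activating enzyme, a conjugating enzyme and a ligase. The ligase picks the substrate: cullin complexes do so through adaptors such as F-box proteins, and most RING finger and tripartite motif proteins carry the ligase activity themselves. Peptidases take the modifier off again, and SUMO, UFM1, NEDD8 and URM1 are related modifiers with enzymes of their own. In T cells this system sets the threshold of activation, and several ligases are best known as brakes on signals from the T cell receptor.

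Values are MAS5 signals in linear units, 1 per probe set and array. Levels of different probe sets are not compared, except within the sums of marker signals and to pick the brightest probe set of a gene. A difference between lines is given on the scale of log2(signal + 5.03), where the constant is the 25th percentile of all signals, so that a value of 1 is about a doubling. Where a gene had several probe sets, the brightest over all arrays stands for it. A probe set was called in limma at a Benjamini-Hochberg adjusted p below 0.05 over all 27022 probe sets tested together with a change of at least 2-fold. All 41 genes passed the filter on low signals.

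Array medians were between 15.8 and 21.5, and aliquots of a line correlated across probe sets at r = 0.956 to 0.974. The 3' to 5' ratio of the Gapdh control, a sign of RNA or labelling quality, was higher in WT2 (1.64 ± 0.181, mean ± SD, n = 2) than in V7 (0.924 ± 0.0519, n = 2) or C5 (0.991 ± 0.229, n = 2). That of the actin control ran the other way, lowest in WT2 (1.93 ± 0.149, n = 2) and higher in V7 (2.27 ± 0.326, n = 2) and C5 (2.39 ± 0.741, n = 2), with a spread in C5 that covers the other lines. Cell type markers, too, had a name only where the submitters had listed a difference. Those read here were thus chosen for differing, the others were not read, and the sums do not stand for a cell type. Of 14 T cell markers 6 had a named probe set, with summed signals of 4075 and 4141 in WT2, 2577 and 2545 in V7 and 2745 and 2238 in C5. Cd3e, a chain of the T cell receptor complex, read 1867 and 2149 in WT2, 1048 and 917 in V7 and 1162 and 901 in C5. Cd5 read 677 and 535 in WT2, 108 and 149 in V7 and 52.5 and 39.8 in C5. Cd2, Cd6 and the brightest Cd247 probe set read at most 9.25 on every V7 and C5 array. Trat1, a T cell adaptor, went the other way, at 1.21 and 6.34 in WT2 and 1293 to 1520 in the other lines. Trat1 was the largest single part of the V7 and C5 sums, which therefore hide how far the other named markers were lower. Of 4 fibroblast markers 2 were named, with a summed signal of 5591 and 6388 in WT2 and 89.4 to 129.6 in the other lines. Acta2 made up nearly all of it in WT2, while Pdgfra was higher in V7 and C5 (47.2 to 85.8) than in WT2 (1.88 and 2.70). The part of RNA quality and of these markers in the differences of the ubiquitin genes was not tested.

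Across the set, V7 differed from WT2 in both directions. In the fit 19 of the 41 genes were called higher in V7, 14 lower and 8 did not pass. The same limits called 5.29% of all probe sets higher and 7.23% lower (12.5% in all), and 84.1% of the tested probe sets of the submitters' V7 and WT2 list, so nothing about the pathway is read from this share of chosen genes. The median difference of the 41 genes was 0.87, beside 0.85 for that whole list and −0.13 for all probe sets tested. After quantile normalization, which moved the median of all probe sets from −0.13 to 0.01, the genes split into 20 higher and 14 lower, while the split over all probe sets went from 1430 higher and 1955 lower to 1703 and 1536. The 2 WT2 signals did not overlap the 2 V7 signals for any of the 41 genes, of which 40 had been listed for a difference between these lines. The share of all probe sets without overlap was not counted, so nothing is read from this.

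**Figure D1:**
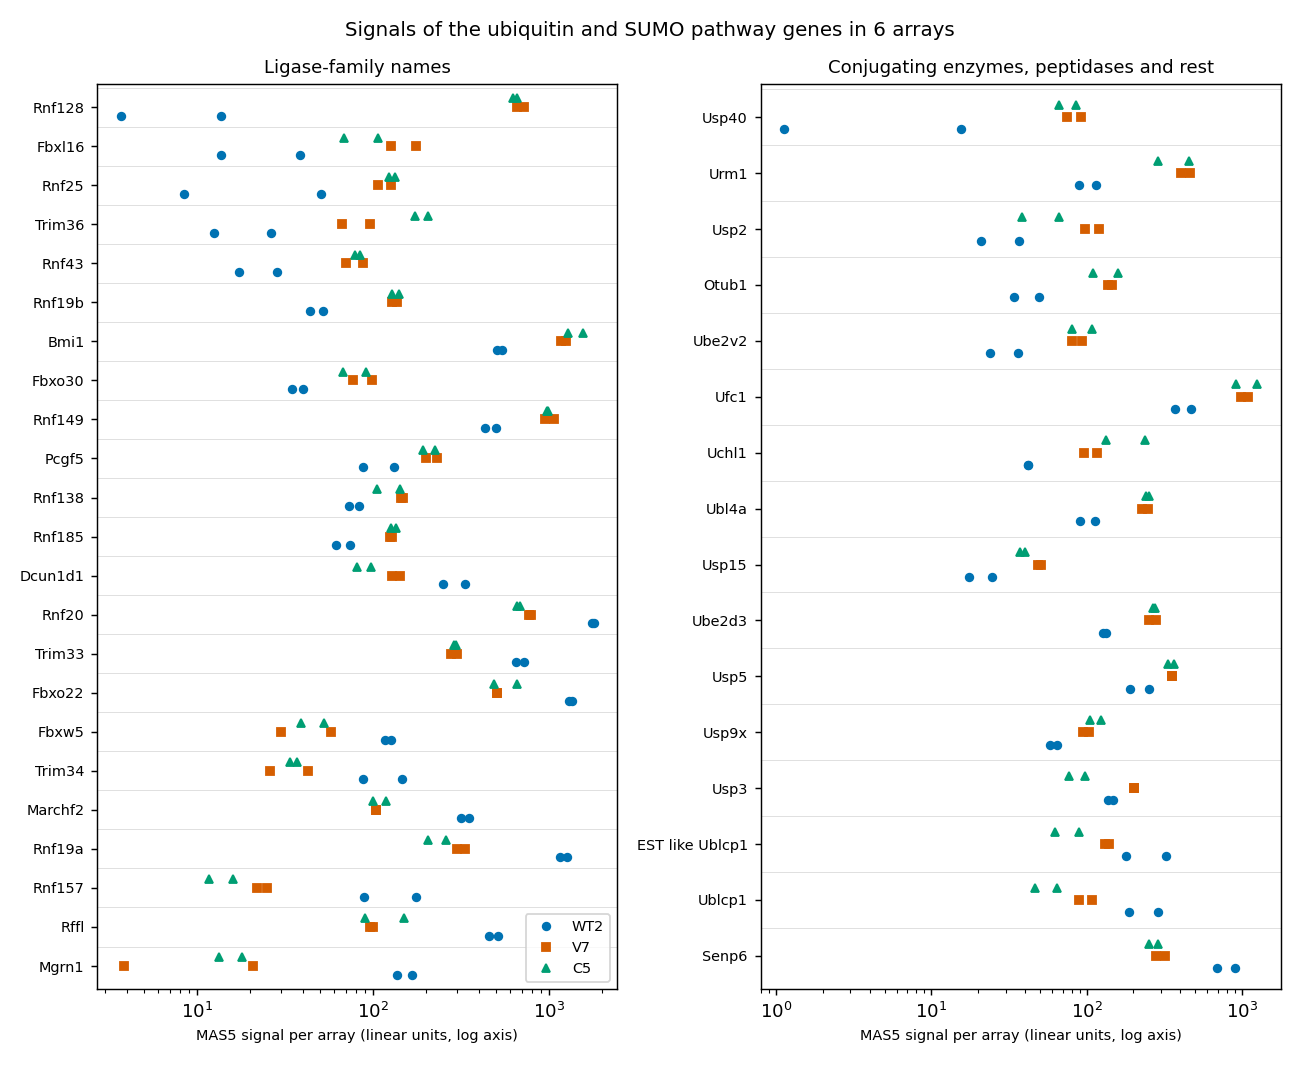
MAS5 signal of 39 of the 41 genes (rows, ordered by the difference of V7 and WT2) on each of the 6 arrays, on a log axis, with WT2 as circles, V7 as squares and C5 as triangles, 2 arrays per line. The WT2 points stand apart from those of V7 in every row, in genes nearly all listed for that difference. The C5 points lie near those of V7 in most rows.

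Among the ligase families the differences ran from −3.37 to 5.76, with 9 of 24 genes called higher in V7, 12 called lower and 3 not passing. Rnf128, also known as GRAIL, a membrane ligase that is induced in anergic T cells and limits their cytokine production, stood out by size. The WT2 aliquots had signals of 3.68 and 13.7, those of V7 719 and 652, and those of C5 621 and 655. The transcript was thus near the low end of the scale in WT2 and plainly measured in the other lines, a difference of 5.76 (SE 0.29) between V7 and WT2. A second Rnf128 probe set read 13.2 and 12.3 in WT2, 511 and 549 in V7 and 589 and 489 in C5, a difference of 4.91. The size of the first depends on the constant, since 1 WT2 signal lies below it: it was 6.37 with 1 added in place of the constant and 4.74 with the median signal added.

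Of the other RING finger names called higher in V7, Rnf25 read 50.5 and 8.37 in WT2, 126 and 106 in V7 and 132 and 122 in C5. The WT2 aliquots of this ligase differed from each other about 6-fold, and the difference of 2.14 was 3.17 without WT2 aliquot 1 and 1.12 without WT2 aliquot 2. Rnf25 was no longer called when the fit used no variance trend. Rnf43, a membrane ligase that removes Frizzled receptors and so dampens Wnt signals, read 17.1 and 28.2 in WT2, 87.4 and 69.9 in V7 and 83.4 and 78.3 in C5 (1.62 between V7 and WT2). Rnf19b, a RING-between-RING ligase known from the cytotoxic function of natural killer cells, read 51.5 and 43.6 in WT2, 128 and 136 in V7 and 139 and 127 in C5 (1.38). The Rnf43 aliquots of WT2 lay farther apart than those of Rnf19b, and for both genes every V7 and C5 signal was above every WT2 signal.

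Among Polycomb RING proteins, Bmi1 was called higher in V7 and Pcgf5 was not. Bmi1, a subunit of the Polycomb complex that ubiquitinates histone H2A, read 506 and 535 in WT2, 1159 and 1244 in V7 and 1550 and 1273 in C5 (1.20). Its relative Pcgf5 read 87.0 and 131 in WT2, 199 and 229 in V7 and 192 and 223 in C5, and at 0.96 it was below the 2-fold limit. It passed after quantile normalization (1.02), without V7 aliquot 1 (1.06) and without WT2 aliquot 2 (1.25). Rnf149 was called (1.11), and Rnf138, a ligase of DNA break repair (0.87), and Rnf185, which acts in the disposal of misfolded proteins of the endoplasmic reticulum (0.85), were not.

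Lower in V7 were 7 RING finger names, and Mgrn1 had the largest such difference of the whole set. Mgrn1, or mahogunin, a ligase known from coat colour and endosomal sorting, read 137 and 167 in WT2, 3.83 and 20.8 in V7 and 13.3 and 18.04 in C5. Its difference of −3.37 (SE 0.46) was −2.60 without V7 aliquot 1, the array with the signal below the constant, and −4.14 without V7 aliquot 2. Rnf157, a relative of mahogunin, read 88.5 and 175 in WT2, 25.02 and 21.9 in V7 and 11.7 and 16.0 in C5 (−2.19). Both of these related ligases were thus low in V7 and C5.

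Rffl, an endosomal ligase that acts on caspases, read 453 and 512 in WT2, 96.0 and 98.9 in V7 and 149.6 and 90.1 in C5 (−2.25). Rnf19a, a RING-between-RING ligase like Rnf19b, read 1255 and 1148 in WT2, 332 and 299 in V7 and 259 and 203 in C5 (−1.91), so these relatives differed in opposite directions. Rnf20, the ligase that places ubiquitin on histone H2B, read 1734 and 1780 in WT2, 769 and 786 in V7 and 684 and 657 in C5 (−1.17). The H2B ligase was therefore lower in V7 while the H2A complex subunit Bmi1 was higher. Marchf2, a membrane ligase that lowers surface proteins, also differed by −1.63.

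The promoters of Rnf128 and Mgrn1 are printed because these ligases mark the ends of the range and each has 1 start in the RefSeq table used here (build GRCm38.p6). Each window runs 5' to 3' on the gene's strand from 250 bases before the start to 50 bases after it, and capitals mark any of 4 motifs found on either strand: the TATA motif TATAAA, the GC box GGGCGG, the E-box CACGTG and, as the phorbol ester response element of AP-1, TGACTCA. The Rnf128 window is chrX:139610370-139610669 on the plus strand.
Rnf128: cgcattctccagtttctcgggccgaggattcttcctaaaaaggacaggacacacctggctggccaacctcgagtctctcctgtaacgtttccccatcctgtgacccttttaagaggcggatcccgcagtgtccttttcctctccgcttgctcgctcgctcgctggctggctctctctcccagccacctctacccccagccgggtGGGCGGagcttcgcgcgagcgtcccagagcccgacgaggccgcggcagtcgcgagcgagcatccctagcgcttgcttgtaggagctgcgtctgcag
The Mgrn1 window is chr16:4885850-4886149, also on the plus strand.
Mgrn1: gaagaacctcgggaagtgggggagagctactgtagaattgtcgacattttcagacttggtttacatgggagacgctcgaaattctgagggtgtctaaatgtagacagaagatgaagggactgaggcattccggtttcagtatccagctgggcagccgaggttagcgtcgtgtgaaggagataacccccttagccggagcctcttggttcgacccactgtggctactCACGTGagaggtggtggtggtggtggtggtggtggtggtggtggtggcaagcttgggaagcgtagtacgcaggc
The Rnf128 window held 1 GC box and 26 CpG dinucleotides, and that of Mgrn1 held 1 E-box and 13 CpG dinucleotides. Of the 41 genes 29 had a promoter in the table, counting 1 per gene. A GC box was in 65.5% of them and in 35.9% of 27018 gene promoters of the same length. The E-box was in 6.90% beside 7.24%, TATAAA in 17.2% beside 14.2%, and the phorbol ester element in 1 of 29 (Fbxw5) beside 5.17%. The median number of CpG dinucleotides was 23 in the 29 promoters and 7 in all. The 29 promoters belong to genes that passed the filter on low signals and had been listed, whereas the 27018 were not chosen by signal. Promoters of other measured or listed genes were not compared, so these shares are not read as a trait of the ubiquitin genes. These are letter matches in a window and say nothing of binding.

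F-box proteins, the substrate adaptors of cullin ligases, split evenly, with 2 of 4 called higher in V7 and 2 lower. Fbxl16 read 13.6 and 38.5 in WT2, 176 and 126 in V7 and 106 and 68.4 in C5 (2.43), and the difference was 1.82 without WT2 aliquot 1 and 3.05 without WT2 aliquot 2. Fbxo30, known from muscle wasting, read 39.9 and 34.6 in WT2, 76.5 and 98.6 in V7 and 90.7 and 67.1 in C5 (1.12). It was no longer called without V7 aliquot 2 (0.95) or with the median signal added (0.93). Fbxo22 and Fbxw5 went the other way. Fbxo22 read 1350 and 1283 in WT2, 501 and 502 in V7 and 656 and 485 in C5 (−1.38). Fbxw5 read 116 and 126 in WT2, 29.7 and 57.1 in V7 and 38.9 and 52.2 in C5 (−1.44), and it was no longer called without V7 aliquot 1 (−1.02). The name with cullin belongs to Dcun1d1, which is no cullin but a factor that helps to attach NEDD8 to cullins and so activates them. It read 249 and 330.3 in WT2, 142 and 127 in V7 and 81.2 and 97.1 in C5 (−1.07), and it fell below the 2-fold limit without WT2 aliquot 2 (−0.86) or V7 aliquot 2 (−0.99) and, narrowly, with the median signal added.

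The tripartite motif genes were 1 higher and 2 lower in V7. Trim36, a microtubule-associated ligase, read 12.4 and 26.2 in WT2, 66.4 and 95.2 in V7 and 172 and 204 in C5 (1.86 between V7 and WT2). Both C5 signals were above both V7 signals, and these above WT2. Trim33, a ligase of TGF-beta signalling, read 643 and 719.8 in WT2, 276 and 299.5 in V7 and 294 and 287 in C5 (−1.23). Trim34 read 87.2 and 146 in WT2, 42.6 and 25.9 in V7 and 37.0 and 33.7 in C5 (−1.62). The mouse has a pair of closely related Trim34 genes, and which of them the probe set measures was not settled here.

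All 4 conjugating enzymes had higher signals in V7 than in WT2, and 3 were called. Ube2v2, a variant without catalytic activity that directs its partner Ube2n to non-degradative chains, read 23.8 and 36.4 in WT2, 80.7 and 93.4 in V7 and 109 and 80.1 in C5 (1.41). Ufc1, the conjugating enzyme of UFM1, read 472 and 372 in WT2, 993 and 1096 in V7 and 913 and 1251 in C5 (1.30). Ube2d3, which works with many ligases, read 127 and 132 in WT2, 282 and 252 in V7 and 276 and 269 in C5 (1.01). This call was at the limit and was lost without V7 aliquot 1 (0.93) or WT2 aliquot 1 (0.98) or with the median signal added (0.95). Ligases had a median difference of −0.11 and conjugating enzymes of 1.16, and no test of that contrast was made.

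Of the 9 peptidases, 5 were called higher in V7, 1 lower and 3 did not pass, with a median of 1.09. Usp40 had the largest difference. It read 15.5 and 1.12 in WT2, 74.3 and 91.9 in V7 and 85.5 and 66.8 in C5 (2.96, SE 0.47). The WT2 aliquots disagreed, and the difference was 3.83 without WT2 aliquot 1 and 2.10 without WT2 aliquot 2. It was 1.99 with the median signal added. Its promoter is shown for this size, at chr1:88008502-88008801 on the minus strand (GRCm38.p6), with capitals as above.
Usp40: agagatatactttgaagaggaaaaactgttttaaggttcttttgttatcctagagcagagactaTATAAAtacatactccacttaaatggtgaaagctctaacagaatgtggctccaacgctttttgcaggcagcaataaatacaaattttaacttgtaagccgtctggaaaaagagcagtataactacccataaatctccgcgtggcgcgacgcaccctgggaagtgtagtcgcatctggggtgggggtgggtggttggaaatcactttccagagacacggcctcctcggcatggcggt
This window held 1 TATAAA match and 11 CpG dinucleotides.

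Otub1, an OTU-family peptidase that in T cells is known to act on the stability of Rnf128, read 49.0 and 33.8 in WT2, 146 and 137 in V7 and 109.5 and 158 in C5 (1.67). Otub1 and Rnf128 were thus higher in the same lines. Usp2, known as a clock-controlled peptidase, read 36.5 and 20.8 in WT2, 97.4 and 119 in V7 and 66.3 and 38.2 in C5 (1.79). Uchl1, a hydrolase abundant in neurons, read 42.1 and 41.7 in WT2, 96.4 and 117 in V7 and 134 and 238 in C5 (1.24). It was no longer called without V7 aliquot 2 (1.11) or without the variance trend. Usp15, a peptidase that restrains T cell activation in mice, read 17.4 and 24.4 in WT2, 50.8 and 48.5 in V7 and 40.3 and 37.0 in C5 (1.09). It was no longer called without V7 aliquot 1 (1.06), V7 aliquot 2 (1.12) or WT2 aliquot 1 (0.89), with the median signal added (0.80) or with no filter on low signals.

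Not passing among the peptidases were Usp5, which takes apart free ubiquitin chains (0.68), Usp9x (0.66) and Usp3, a histone peptidase (0.48). Usp5 read 253 and 189 in WT2, 354 and 354 in V7 and 335 and 366 in C5. Usp9x read 57.8 and 64.1 in WT2, 94.9 and 103 in V7 and 105 and 125 in C5. The single SUMO peptidase, Senp6, which trims chains of SUMO, was the only peptidase with lower signals in V7. It read 689 and 902 in WT2, 278 and 318 in V7 and 288 and 253 in C5 (−1.39).

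The remaining genes are modifiers and proteins with a ubiquitin-like domain. Urm1, a modifier that also carries sulfur for tRNA, read 88.9 and 114 in WT2, 407 and 467 in V7 and 287 and 455 in C5 (2.06). Ubl4a, which helps to insert tail-anchored membrane proteins, read 113 and 90.5 in WT2, 247 and 229 in V7 and 254 and 239.7 in C5 (1.20). Ublcp1, a phosphatase that acts on the proteasome, was lower in V7 and lower still in C5. It read 186 and 287 in WT2, 108 and 88.7 in V7 and 64.6 and 46.6 in C5 (−1.20), and at −0.90 it missed the 2-fold limit without WT2 aliquot 2. It was also not called without V7 aliquot 2 (−1.07) or without the variance trend. An unplaced sequence entry that the submitters named after the same phosphatase read 179.7 and 323 in WT2, 139 and 130.5 in V7 and 89.5 and 63.0 in C5 (−0.82, not called, but called at −1.23 without WT2 aliquot 1). Whether it measures the same transcript was not settled here.

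**Figure D2:**
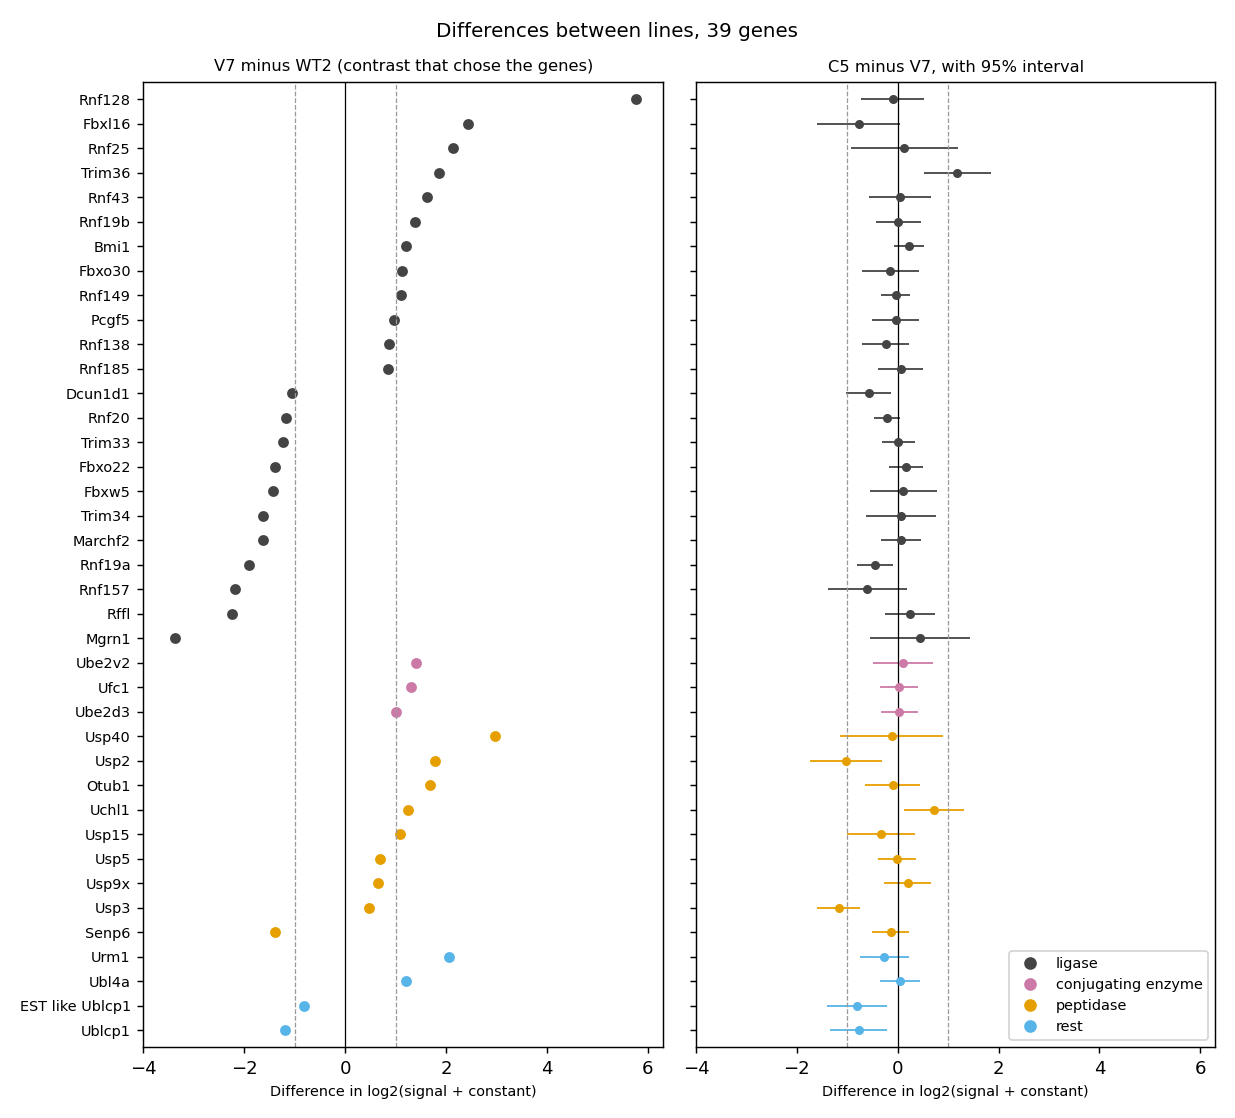
Difference in log2(signal + constant) for 39 of the 41 genes, grouped by role, with V7 minus WT2 on the left, the contrast on which the genes had been listed, and C5 minus V7 on the right with its 95% interval (limma, 2 arrays per line). Dashed lines mark 2-fold. On the left the genes lie from −3.37 to 5.76, and on the right from −1.17 to 1.19.

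C5, labelled highly metastatic, was next set against the metastatic V7. For 39 of the genes this is not the contrast on which they were listed, although the V7 arrays are shared. None of the 39 passed in limma, where 0.0999% of all probe sets and 0.622% of those on the V7 and WT2 list did. At an unadjusted p below 0.05 and with no fold limit there were 6 of 39, or 15.4%, beside 6.5% of all probe sets and 13.1% of that list. Differences ran from −1.02 to 1.19, with a median of 0.02. The 95% interval of the difference lay within 2-fold either way for 29 of the 39 (74.4%), which also held for 57.5% of all probe sets and 67.7% of the list. For the other 10 the interval reached past 2-fold, so a difference of that size was not resolved with 2 arrays per line.

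The largest of these differences was in Trim36, higher in C5 by 1.19 (95% interval 0.52 to 1.86, limma adjusted p = 0.297), where both C5 signals exceeded both V7 signals. Usp2 was lower in C5 by −1.02 (−1.73 to −0.31, adjusted p = 0.528 in limma), again without overlap of the aliquots. The C5 and V7 aliquots did not overlap for 16 of the 41 genes, and the share over all probe sets was not counted. Lack of overlap therefore does not set Trim36 and Usp2 apart. Uchl1 was higher by 0.72 (0.14 to 1.31, limma adjusted p = 0.630), with C5 aliquots that differed from each other as 134 and 238. Fbxl16 was lower by −0.77 (−1.59 to 0.04) and the entry named after Ublcp1 by −0.80 (−1.39 to −0.21, limma adjusted p = 0.566). The other 2 with an unadjusted p below 0.05 had probe sets that disagreed in sign. For Rnf19a the brighter probe set gave −0.45 and the dimmer 0.23. For Dcun1d1 the brightest gave −0.57 and the others 0.44 and 0.16.

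For Rnf128 the difference between C5 and V7 was −0.10 with an interval of −0.73 to 0.53, and for Mgrn1 it was 0.44 (−0.55 to 1.44). The Mgrn1 value rests on the V7 aliquots, at −0.33 without V7 aliquot 1 and 1.21 without V7 aliquot 2, so it has no settled sign. Among the conjugating enzymes, the intervals of Ube2d3 at 0.03 (−0.33 to 0.39), Ube2v2 at 0.10 (−0.50 to 0.69) and Ufc1 at 0.03 (−0.34 to 0.41) all lay inside 2-fold.

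The 2 genes on the submitters' list for C5 and V7 were chosen on that contrast and are described only. Usp3 read 149 and 138 in WT2, 202 and 202 in V7 and 97.9 and 77.2 in C5, so V7 had the highest and C5 the lowest signals. Its difference between C5 and V7 was −1.17, and the authors' deposited table gives a ratio of 2.05, lower in C5. Ublcp1 differed by −0.78, where the authors' deposited table gives 2.17, also lower in C5.

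C5 and V7 were each set against the same WT2 arrays, so these contrasts share samples and only their values are set side by side. Against WT2, 16 genes were called higher in C5 and 15 lower, where the same limits called 5.58% and 7.46% of all probe sets (13% in all). Of the tested probe sets of the submitters' V7 and WT2 list they called 79.7%. Nearly all the genes had been chosen from that list, so nothing about the pathway is read from these counts. Rnf128 was 5.66 higher in C5 and 5.76 higher in V7. Trim36 had 3.04 in C5 and 1.86 in V7, and Mgrn1 −2.92 and −3.37. Usp2 and Usp15 had 1.79 and 1.09 in V7 but 0.76 each in C5, below 2-fold.

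The 8 genes with more than 1 listed probe set give a second reading of the same RNA. Their 17 probe sets had 1 direction per gene in every case, and for 7 of the 8 every probe set was called between V7 and WT2. The exception was Ube2d3, where the dimmer probe set read 53.3 and 53.6 in WT2, 70.3 and 85.2 in V7 and 76.8 and 85.8 in C5, a difference of 0.49, and the brighter probe set has probes shared between transcripts. Other pairs, brightest first, differed by −1.91 and −1.98 for Rnf19a, −2.19 and −2.28 for Rnf157, −1.17 and −1.55 for Rnf20, 1.12 and 1.08 for Fbxo30 and 2.06 and 1.56 for Urm1. The 3 Dcun1d1 probe sets had −1.07, −1.66 and −1.73. Probes shared between transcripts are also found in the brightest probe sets of Rnf20 and Urm1 and in the dimmest of Dcun1d1 (−1.73). All these probe sets had been listed for a difference, so their shared direction is no separate evidence.

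**Figure D3:**
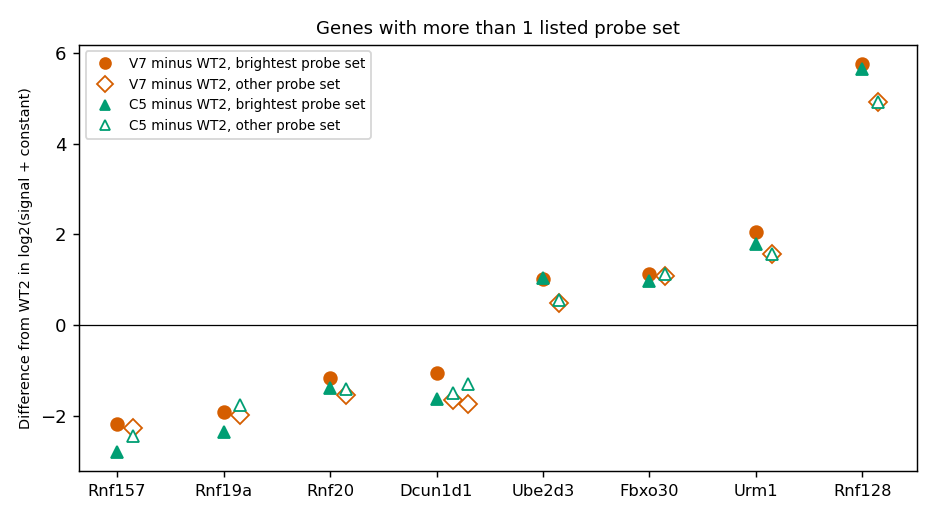
Difference from WT2 in log2(signal + constant) for each listed probe set of the 8 genes with more than 1, for V7 (circles and diamonds) and C5 (triangles), filled for the brightest probe set and open for the others. Each gene keeps 1 side of 0, and the Rnf128 probe sets lie at 4.91 and 5.76 for V7.

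The submitters' lists had been set at a ratio of at least 2. Members just inside that limit in the authors' deposited table were Rnf185 with a ratio of 2.01 and Rnf138 and Usp9x with 2.04 each, and the unlisted probe sets just outside it carry no names and were not analysed here. In the fit all 49 member probe sets of the V7 and WT2 list had the deposited direction, and 23 of the 49 had a smaller difference than deposited. The median absolute log2 difference was 1.41 in the fit and 1.38 in the authors' deposited table. How the deposited means were summarised is not stated in the sources used here, and single values differed both ways. For Mgrn1 the deposited ratio was 4.37 and the fit gave 10.3-fold. For the dimmer Ube2d3 probe set these were 2.61 and 1.41-fold.

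Other genes were gathered by words of the pathway in their deposited names, and such a match does not show that a gene acts in it. They too had been listed for a difference. The limits called 43% of the tested probe sets of the V7 and WT2 list higher in V7 and 41.1% lower. Of all probe sets they called 5.29% higher and 7.23% lower. Nothing about the pathway is read from the counts of these few chosen genes. Of 7 proteasome entries 5 were called higher in V7 than in WT2, none was called lower and 2 did not pass, with a median of 1.19. The immunoproteasome subunits were all called. Psmb10 (beta type 10) read 397 and 278 in WT2, 1048 and 949 in V7 and 1057 and 1664 in C5 (1.57), Psmb9 (beta type 9) differed by 1.19 and Psmb8 (beta type 8) by 1.14. Psmb9 read 906 and 939.8 in WT2, 2021 and 2220 in V7 and 1003 and 1503 in C5, so the C5 signals lay between those of the other lines, at −0.78 from V7 (95% interval −1.15 to −0.42, limma adjusted p = 0.145). The core subunit of alpha type 5 differed by 1.39 and the assembly chaperone 3 by 0.92.

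Of 8 genes with BTB or kelch in the name, words found in some adaptors of cullin ligases, 6 were called higher in V7 and 2 lower. Whether each of them is such an adaptor was not settled here. The C5 signals did not follow those of V7 in BTB domain containing 3. Its brighter probe set read 3.25 and 4.40 in WT2, 81.8 and 88.8 in V7 and 8.26 and 0.29 in C5. The difference between C5 and V7 was −3.42, of a size that depends on the constant. This gene stands in the submitters' list for C5 and V7 and is described only. Kelch-like 4 read 2.44 and 7.28 in WT2, 1007 and 939 in V7 and 2076 and 1641 in C5 (6.67). Its WT2 mean lay below the added constant, so this size depends on the constant. Kelch-like 22 read 344 and 265, 20.7 and 16.5, and 13.8 and 16.6 in the same order (−3.70). Of 5 genes with a SOCS box name, 2 were called higher, 2 lower and 1 did not pass, with a range of −7.31 to 2.25. The gene at the lower end had a V7 mean below the added constant, so its size depends on the constant. Suppressor of cytokine signaling 2, at the upper end, read 41.6 and 43.2 in WT2, 224.7 and 216.9 in V7 and 98.7 and 75.0 in C5. Its difference between C5 and V7 was −1.31, described only, since it too stands in the submitters' list for C5 and V7. Casitas B-lineage lymphoma, the ligase Cbl that acts on activated receptors and kinases, read 144 and 166 in WT2, 49.5 and 30.6 in V7 and 36.4 and 43.7 in C5 (−1.86). Cbl was thus low in the lines in which Rnf128 was high. Of 5 chaperones 3 were called lower and 2 did not pass. Of 2 autophagy genes 1 was called in each direction. The single entry named Neural precursor cell expressed gene 1, gathered by its name alone, was lower (−1.32). No entry matched the names of the COP9 signalosome, HECT ligases or the anaphase promoting complex.

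**Figure D4:**
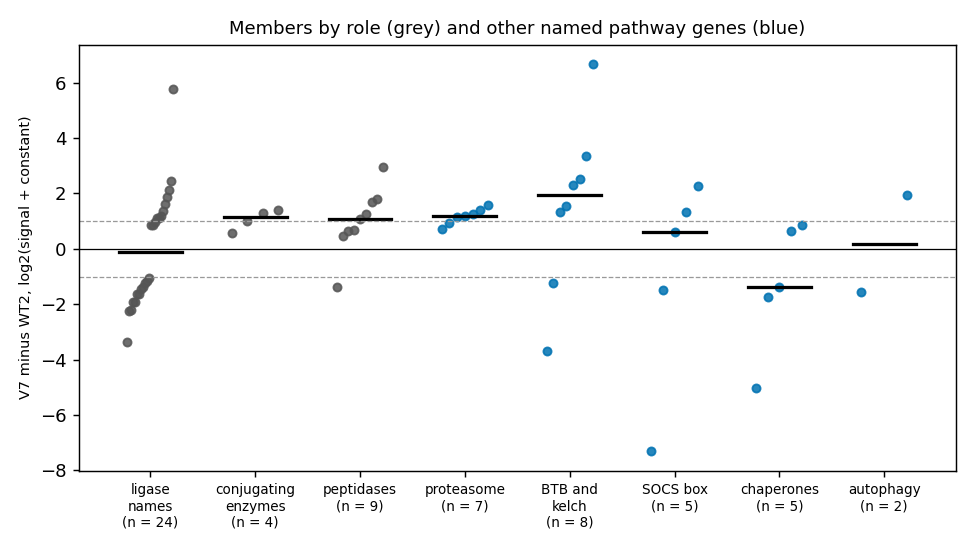
Difference between V7 and WT2 in log2(signal + constant) for single genes (points) with the median (bar), by role for the ligases, conjugating enzymes and peptidases (grey) and by name for other pathway genes (blue). Dashed lines mark 2-fold. The 7 proteasome entries lie from 0.72 to 1.57, all above 0, and the 24 ligase names lie on both sides. All these genes had been listed for a difference between lines, and no test between the groups was made.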

How the data were processed

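The authors deposited 1 table of linear signal intensities per probe set, made with MAS5 per the submitters' processing notes (version not given in the sources used here), with the same 2% trimmed mean on all 6 arrays. They also deposited 2 lists of probe sets, which hold, per the file headers, log2 means of each line, a fold ratio and p-values of a t-test. From these lists only the names, the deposited ratios with their directions and the adjusted p-values of Usp3 and Ublcp1 between C5 and V7 were taken. Symbols came from a RefSeq accession for 7 genes and were read from the deposited name for 33.

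Signals were analysed as log2(signal + 5.03). Controls and probe sets whose mean fell at or below the 40th percentile (11.7) were left out, which kept 27022 of 45101 for testing. All 6 arrays entered a limma 3.58.1 fit with a mean for each line (R 4.3.3, variance trend, 3 residual and 8.47 prior degrees of freedom), p-values were adjusted over all probe sets tested, and the script was tested on simulated data. Summaries used Python 3.11.15, pandas 2.3.3 and matplotlib 3.10.9. The members, the lists and the rule for naming genes (the largest differences per family, members with several probe sets and the largest differences of C5 and V7) were chosen with earlier results of these data known. Same-numbered aliquots were not paired: their deviations from the line means correlated at −0.04 to 0.04. Only 2 arrays per line limit the precision. Single values of 2 of the 41 genes are not reported here; these genes stay in the counts and medians.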

Additional observations from a re-analysis of the deposited data

How the results depend on the processing

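With 1 or the median signal added before logs, no filter, quantile normalization, no variance trend or no fold limit, the members called between V7 and WT2 numbered 29 to 39 (33 as reported) and between C5 and WT2 28 to 38 (31). No member that passed the limits between V7 and WT2 or between C5 and V7, in any setting, changed sign there; single members were not followed between C5 and WT2. Leaving out 1 array gave 28 to 33 and 29 to 33. Between C5 and V7 members called were 0, but 1 (Usp3, lower) with the median signal added; leaving out 1 array gave 0 to 1, the 1 being Usp3 without either WT2 aliquot. With a replicate block for the aliquot number the members called were 33, 0 and 31, as without it. Over all probe sets, calls between C5 and V7 were 27, but 55 with the median signal added, 4 without the trend, 15 with the replicate block and 5 to 68 with 1 array left out, where a lone array is assumed to vary like the others. With no fold limit they were 6648 between V7 and WT2 (3385 as reported) and 6945 between C5 and WT2 (3524). With 1 array left out these 2 counts were 2704 to 3638 and 2869 to 3891. The cause of these shifts was not tested beyond what each setting changes. Signals near the low end of the scale, as in WT2 for Rnf128 and Usp40, set no reliable size of a difference.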
